A study of Mus musculus with 2 samples.

Results

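G0s2 and 5 genes of triglyceride breakdown, Pnpla2, Abhd5, Lipe, Mgll and Pnpla3, were followed in mouse primary hepatocytes after knockdown of G0s2. Members were all non-control probes whose gene name, or whose accession in the RefSeq gene table, gave 1 of these 6 symbols. The rule found 12 of 39424 probes, and the 6 genes were among 23602 named on the array. Every member probe was named by its accession. Primary hepatocytes are liver parenchymal cells isolated for culture. One array held RNA from cells given control siRNA and 1 held RNA from cells given G0s2 siRNA. In both groups 50 pmol of siRNA was delivered with Lipofectamine 2000, in medium with 10% fetal bovine serum, and RNA was taken after 24 hours. Both groups therefore shared the lipid reagent, the serum and the transfection itself, and neither was an untransfected culture. The mouse strain, age and sex, the number of animals pooled and the siRNA sequences are not stated in the labels. From each sample 0.5 ug of RNA was labelled with Cy3 and read on a 1-colour Agilent array.

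Triglycerides stored in lipid droplets are broken down in steps. Adipose triglyceride lipase (ATGL), encoded by Pnpla2, removes the first fatty acid, hormone-sensitive lipase, encoded by Lipe, acts mainly on the diglyceride that remains, and monoglyceride lipase, encoded by Mgll, releases the last fatty acid from glycerol. Abhd5 encodes CGI-58, the coactivator of ATGL, and G0s2 encodes a small protein that binds ATGL and inhibits it. Pnpla3, a relative of Pnpla2, encodes a droplet protein that follows feeding. Fatty acids released by ATGL in hepatocytes can activate the nuclear receptor PPAR alpha, encoded by Ppara.

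The array measures each transcript through probes of 60 bases. Shown here are the probes that gave the G0s2, Pnpla2 and Mgll values, a Mgll probe annotated to another transcript and 1 of the 3 Abhd5 probes. They are written 5′ to 3′ as the scanner tables give them. The single G0s2 probe, for NM_008059, lies on chr1:195098925-195098984 of mm9 on the minus strand, from base 212 of the transcript. Its capitals mark the first ATG, at base 17 of the probe, after which 14 whole codons, that ATG included, run to the probe's end without a stop. A first ATG followed in that way by a reading frame of at least 10 codons was found in 23.5% of the 39429 probes. For Pnpla2 (chr7:148645958-148645987, plus strand) and for the brightest Mgll probe (chr6:88778322-88778351, plus strand) the last 30 bases of the probe are shown. Capitals there mark AATAAA, the common polyadenylation signal. AATAAA stood in the last 30 bases of 10.6% of all probes, anywhere on the printed strand in 12.6%, and on either strand in 16.2%. Among the 12 member probes it was found on the printed strand of 3, the third being Lipe. The other Mgll probe shown (chr6:88714636-88714695, plus strand) is annotated to another transcript of the gene, NM_001166250. The Abhd5 probe shown (chr9:122277200-122277259, plus strand) is that nearest the transcript's start, and the brighter one at position 1363, which stood for the gene, is not shown. Exon and UTR annotation on mm9 was not used here.
G0s2: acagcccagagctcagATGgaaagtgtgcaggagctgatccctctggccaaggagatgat
Pnpla2: aaagcagatctAATAAAagccacagctcag
Mgll, NM_001166251: ctcaccgtAATAAAaaccacgtgcttttgg
Mgll, NM_001166250: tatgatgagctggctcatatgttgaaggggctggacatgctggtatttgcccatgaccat
Abhd5: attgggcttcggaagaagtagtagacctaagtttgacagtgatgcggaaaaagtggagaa

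Signals were higher overall on the G0s2 siRNA array. The 75th percentile of the processed signal, the scanner program's background-corrected intensity, was 418 with control siRNA and 728 with G0s2 siRNA, a log2 ratio of 0.80, and 54.1% and 58.2% of probes were well above background. Levels are therefore given as log2 processed signal minus the array's 75th percentile, and differences as G0s2 siRNA minus control siRNA. The brightest probe stood for its gene, and 15419 genes were measured, meaning well above background on at least 1 array. A single array per group leaves each difference without replication, no p-value was computed, and each value compares 2 arrays rather than 2 conditions. Errors are those of the scanner program, with a median of 0.20 on the log2 difference for genes on both arrays. For bright single-spot probes they come to nearly the same share of the signal, so they are no spread measured between arrays. Spots of a probe were taken as independent, which makes the error of a repeated probe smaller. Probes spotted 5 or more times, 247 in all, had a median SD of 0.07 between spots of the same probe. Between the brightest and next probe of a gene the median gap in difference was 0.27 and the 90th percentile 0.88, over 3377 genes. Of all genes measured, 842 (5.46%) were at least 2-fold lower with G0s2 siRNA, 741 (4.81%) at least 2-fold higher and 1583 (10.3%) past that rule either way.

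G0s2, the target of the siRNA and the inhibitor of ATGL, was 6.50-fold lower with G0s2 siRNA. Its processed signal was 383 ± 38.4 (scanner error) with control siRNA and 103 ± 11.3 with G0s2 siRNA. In the image, the mean over the 63 pixels of the control spot was 485 (pixel SD 80.1) against a local background of 60, and over 65 pixels of the G0s2 siRNA spot it was 171 (pixel SD 28.9) against 64. The transcript remained well above background on both arrays, so a remainder was still measured at 24 hours. On the scaled log2 scale its level was -0.13 with control siRNA and -2.83 with G0s2 siRNA, a difference of -2.70 ± 0.21. Only 20 of 14120 genes measured on both arrays had a lower difference. Within its decile of genes by level, 6.42% were at least 2-fold lower. G0s2 has 1 probe with 1 spot per array, so neither another probe nor another spot checks this value. As RNA from a whole culture was measured, fewer cells containing the transcript and less of it per cell cannot be told apart.

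**Figure D1:**
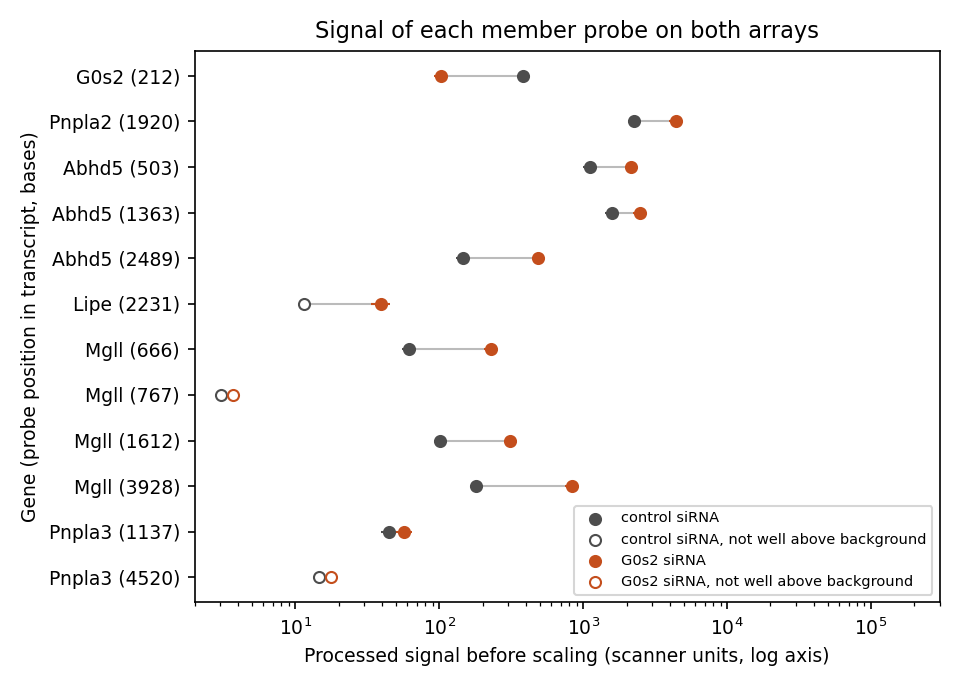
Processed signal before scaling (scanner units, log axis) of the 12 member probes on the control siRNA array (grey) and the G0s2 siRNA array (orange), each labelled with its position in the transcript. Bars are the scanner's error and are drawn for filled points only, and open points were not well above background. G0s2 moved from 383 to 103, and each of the other 11 probes lay further right on the G0s2 siRNA array.

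Before any scaling, the G0s2 probe alone among the 12 member probes was dimmer on the G0s2 siRNA array, at 0.268 of its control signal. The other 11 were 1.21 to 4.59 times as bright there as on the control array. Of the 20903 probes well above background on both arrays, 7.44% were dimmer on the G0s2 siRNA array before scaling. The lower G0s2 signal was thus present before scaling, whereas the direction of the smaller differences depends on the scale.

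Pnpla2, the gene of the lipase that G0s2 inhibits, differed by less than the scanner's error. Its signal was 2266 ± 227 with control siRNA and 4381 ± 438 with G0s2 siRNA, which gave levels of 2.44 and 2.59. The difference was 0.15 ± 0.20, and 32.3% of genes measured on both arrays had a higher one. The G0s2 difference minus the Pnpla2 difference was -2.85 ± 0.30, a 7.22-fold change in their ratio, and this value is the same however the 2 arrays are centred. Under background correction by normexp it was -2.65, and in the authors' series table -2.95.

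Abhd5, the gene of the ATGL coactivator, had 3 probes that did not give the same difference. The probe at position 1363, the brightest, had signals of 1576 with control siRNA and 2463 with G0s2 siRNA, a scaled difference of -0.15 ± 0.20. At position 503 the signals were 1115 and 2156, a difference of 0.15 ± 0.20. Both of these differed from 0 by less than the scanner's error and were of opposite sign. The dimmest probe, at position 2489 (chr9:122289983-122290042 of mm9), read 146 and 487, a difference of 0.95 ± 0.21. The range over the 3 probes was 1.10 ± 0.29. Of 448 genes with exactly 3 probes measured on both arrays, 12.3% had a wider range, and the median range was 0.52. The mean over the 3 probes was 0.31 with an SD of 0.57 between probes, and the probes did not share a direction.

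**Figure D2:**
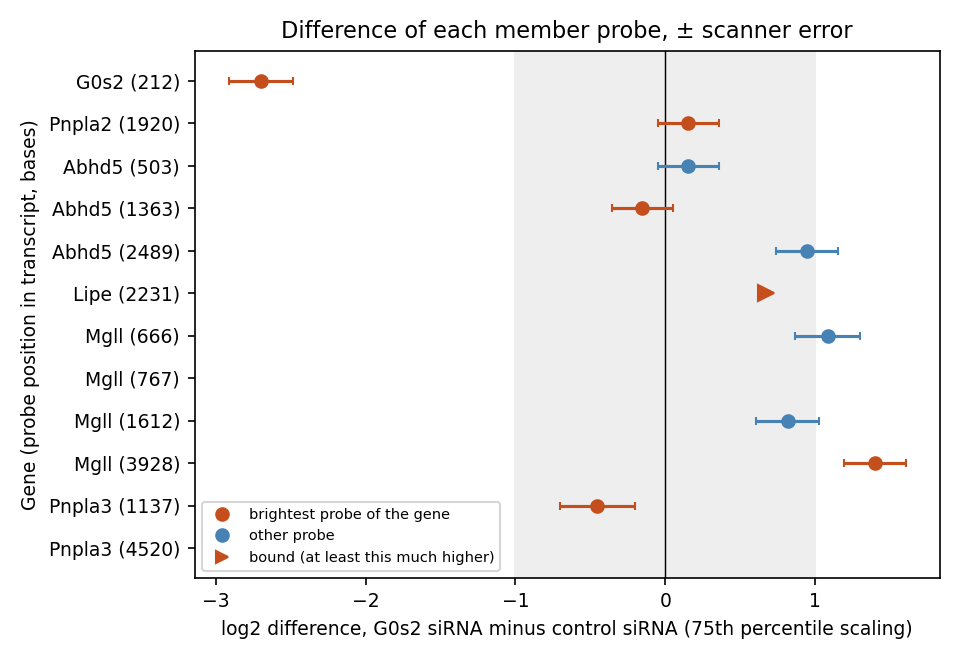
The log2 difference of each member probe, G0s2 siRNA minus control siRNA after 75th percentile scaling, with the scanner's error as bars. Orange marks the brightest probe of a gene, blue another probe and the triangle a lower bound. The grey band spans differences under 2-fold, and 2 probes not well above background on either array are left empty. G0s2 lies at -2.70, and the 3 measured Mgll probes lie from 0.82 to 1.40.

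Mgll, the gene of the monoglyceride lipase, was the member with the largest increase, and its 3 measured probes shared a direction. The brightest, at position 3928 of NM_001166251, had signals of 181 ± 18.4 with control siRNA and 831 ± 83.2 with G0s2 siRNA. Its levels were -1.21 and 0.19, a difference of 1.40 ± 0.21, or 2.64-fold. Of the genes measured on both arrays, 1.59% had a higher difference. At position 1612 of the same transcript the signals were 102 and 313, a difference of 0.82 ± 0.21. The probe of NM_001166250 at position 666 read 61.9 and 228, a difference of 1.08 ± 0.22. Thus 3 of 3 measured probes were higher by more than the scanner's error, although the one at position 1612 stayed under 2-fold. They are annotated to 2 transcripts, but whether each probe reads only its own was not tested. All of them read the same 2 RNA samples, so their shared direction does not replicate the difference between the groups. The mean over them was 1.10 with an SD of 0.29 between probes, and their range of 0.58 was exceeded in 45.1% of genes with 3 probes. A further probe, at position 767 of NM_001166250 (chr6:88716266-88716325), was not well above background on either array, at 3.04 and 3.70. Within the decile of genes at the level of Mgll, 6.29% were at least 2-fold higher.

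Lipe, the gene of hormone-sensitive lipase, was near the limit of the measurement. Its 1 probe (chr7:26165828-26165887 of mm9, minus strand) was not well above background on the control array, with a signal of 11.6 ± 3.62, and was so on the G0s2 siRNA array, at 39.7 ± 6.08. Set against the lowest signal well above background on the control array, 14.3, Lipe was at least 1.59-fold higher with G0s2 siRNA. It entered the measured genes only through the G0s2 siRNA array, so it could not have come out lower. Under normexp no fold could be given.

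Pnpla3 was also dim. Its probe at position 1137 (chr15:84016440-84016499 of mm9, plus strand) had signals of 45.0 ± 5.40 with control siRNA and 57.1 ± 7.13 with G0s2 siRNA. On the scaled log2 scale this was a difference of -0.45 ± 0.25, and 19.8% of genes measured on both arrays had a lower one. The other probe, at position 4520, was not well above background on either array, at 14.6 and 17.6, and gave no fold.

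All 6 members passed the filter on dim probes, 5 of them on both arrays. In all, 2 of 6 were past 2-fold, G0s2 lower and Mgll higher, against 10.3% of all genes. G0s2 was chosen as the knockdown target, so its place in that count was set by the design. In the order of their differences the members ran from G0s2 through Pnpla3, Abhd5 and Pnpla2 to Lipe and Mgll. Among neighbours in that order, Pnpla2 exceeded Abhd5 by 0.31 ± 0.29 and Abhd5 exceeded Pnpla3 by 0.30 ± 0.32. Both gaps are about the size of their scanner error, and the first is smaller than the spread between Abhd5 probes. The place of Lipe rests on a bound. Mgll differed from Pnpla2 by 1.25 ± 0.29, so their ratio was 2.37-fold higher with G0s2 siRNA. Genes whose difference lay nearest to that of G0s2 over the 2 arrays were Oasl2 at -2.69, Gbp6 at -2.71, Efemp1 at -2.67 and Cmpk2 at -2.76. With 2 arrays this likeness is a single difference, and it depends on the processing. With probes averaged Gbp6 gave -1.53 and Cmpk2 -2.31. Under normexp, where G0s2 was at -2.36, Efemp1 gave -1.62, Gbp6 -2.11, Cmpk2 -2.55 and Oasl2 -2.65.

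**Figure D3:**
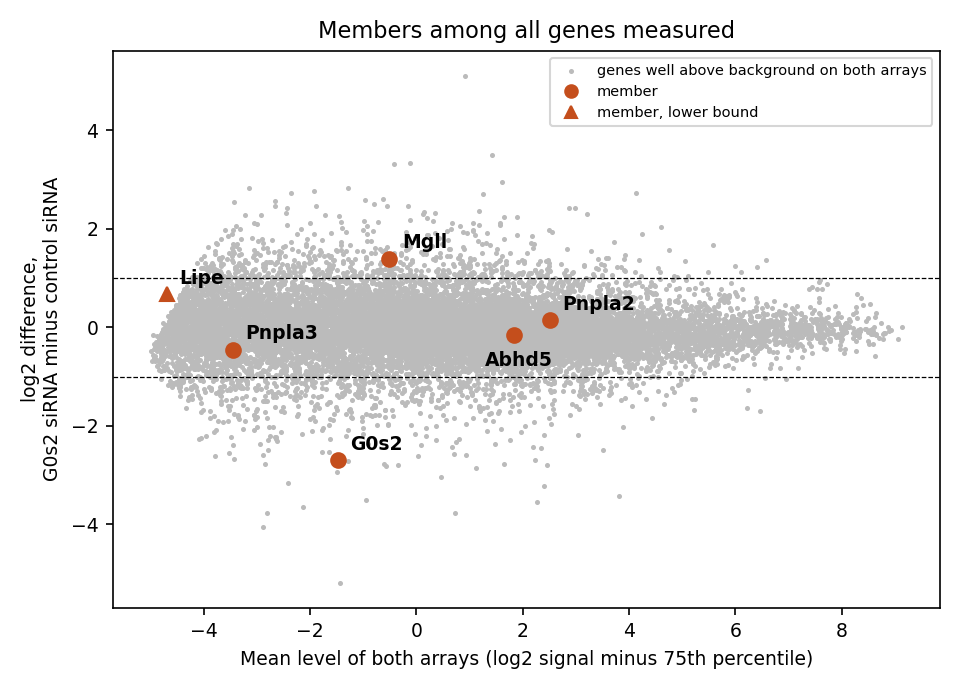
Each gene's log2 difference, G0s2 siRNA minus control siRNA, against the mean level of its probe on both arrays (log2 signal minus the 75th percentile). Grey points are the 14120 genes well above background on both arrays, orange points the members, the triangle a lower bound, and dashed lines mark 2-fold. G0s2 lies among the lowest differences, Mgll above the upper line, and the other 4 members between the lines.

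The choice of scale moved the members in parallel. Centring on 8 Agilent spike-in control probes, RNAs of known amount added to each sample, raised the difference of each gene measured on both arrays by 1.42, and the median over all genes was then 1.37. The share of higher genes among those past 2-fold was 46.8% with the 75th percentile and 99.6% with the spike-ins. The spike-in probes themselves differed by -0.98 to -0.08 between the arrays, and whether equal amounts were added is not stated in the labels. On that scale G0s2 was still lower with G0s2 siRNA, at -1.28, while Pnpla2 was at 1.58, Abhd5 at 1.27, Pnpla3 at 0.97 and Mgll at 2.82. The signs of Abhd5 and Pnpla3 thus turned with the spike-ins, and those of G0s2, Pnpla2 and Mgll did not. Removal of a trend with probe position, which bears on G0s2 since its probe lies near the transcript's start, left it at -2.57. Position was counted from the transcript's start without regard to its length, so this setting cannot show whether distance from the transcript's end affects G0s2.

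**Figure D4:**
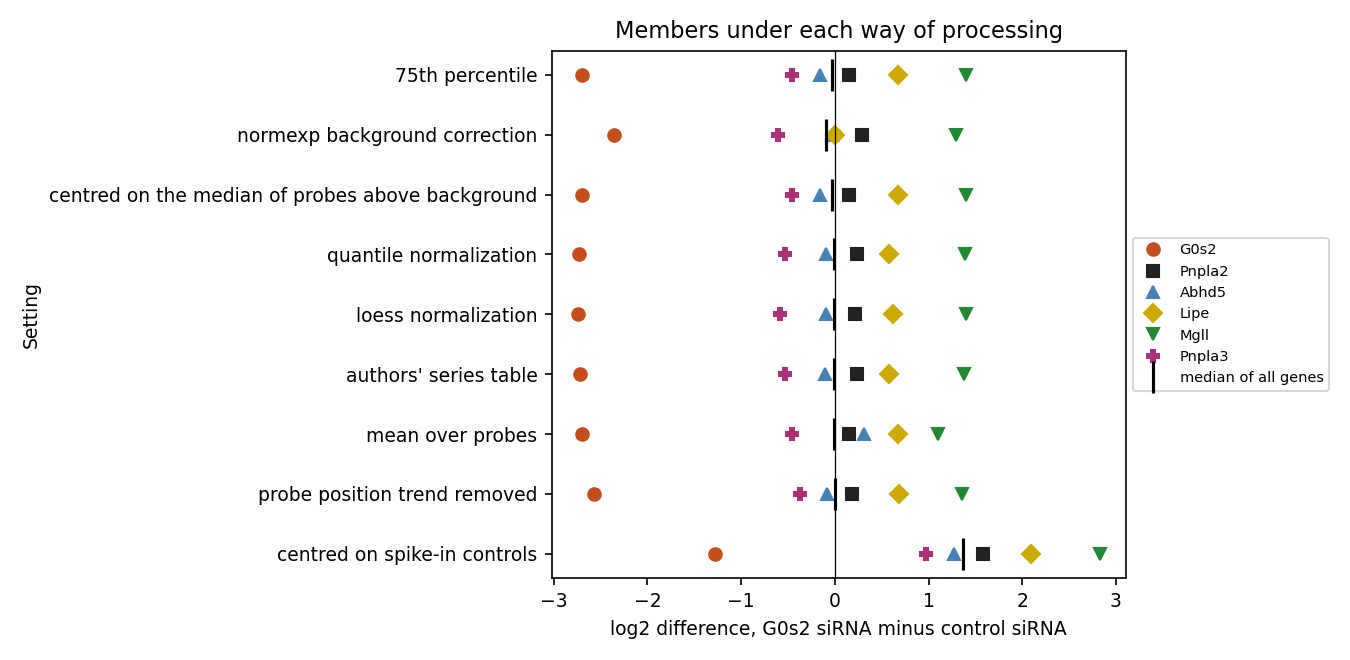
The log2 difference of each member, G0s2 siRNA minus control siRNA, under 9 ways of processing the arrays, with the median of all genes as a vertical tick. Lipe is a lower bound throughout, and its point at 0 under normexp stands for no fold. G0s2 is the lowest member under each of them, at -2.74 to -2.36 apart from -1.28 with spike-in centring, where the tick moves to 1.37.

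Genes around the members were described by lists of the pathway. Among other hydrolases of neutral lipids and their relatives, 25 of 31 were measured, 2 were at least 2-fold higher, 1 was lower, and the median was 0.04 against -0.03 for all genes. Lipc, which encodes hepatic lipase, a secreted enzyme of lipoproteins, differed by 1.55 ± 0.21, with signals of 97.3 under control siRNA and 495 under G0s2 siRNA. Under normexp the Lipc difference was 1.07. Pnpla6, which encodes a lysophospholipase of the patatin-like family, differed by 1.18, while its close relative Pnpla7 differed by -0.84. The carboxylesterase gene Ces3a differed by -1.24 and Ces1f by -0.99. Their family holds near-identical copies, so these values are uncertain. Ces1d, which encodes a triglyceride hydrolase of the endoplasmic reticulum, differed by 0.33, Lipa, the lysosomal acid lipase gene, by -0.17 and Aadac by 0.00. The intracellular hydrolases named here thus moved both ways or stayed within 2-fold.

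Of 22 genes that control lipolysis at the droplet, 20 were measured, with 2 at least 2-fold higher and 1 lower and a median of -0.13. The perilipins, which coat the droplet and govern access of lipases, stayed within 2-fold. Plin2, the main coat protein in hepatocytes, had signals of 39096 and 61225 and a scaled difference of -0.15, Plin3 differed by -0.10, Plin4 by -0.24 and Plin5, which binds both Pnpla2 and Abhd5 proteins, by 0.43. Plin1 was not well above background on either array. Hilpda, which encodes another inhibitor of ATGL, differed by -0.64 and its other probe by -0.70. Both inhibitor genes, G0s2 and Hilpda, thus gave negative differences on this scale, but that of Hilpda was within 2-fold. Faf2 differed by -0.75, although its other probe gave -0.25. Of the CIDE family, which enlarges droplets, Cideb differed by 1.21 and its other probe by 1.24, Cidec by 0.55 and Cidea by -1.05, which was -0.82 under normexp. Fitm2, of droplet formation, differed by 1.30 and its other probe by 0.32, a mean of 0.81. Hsd17b11 differed by 0.93.

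**Figure D5:**
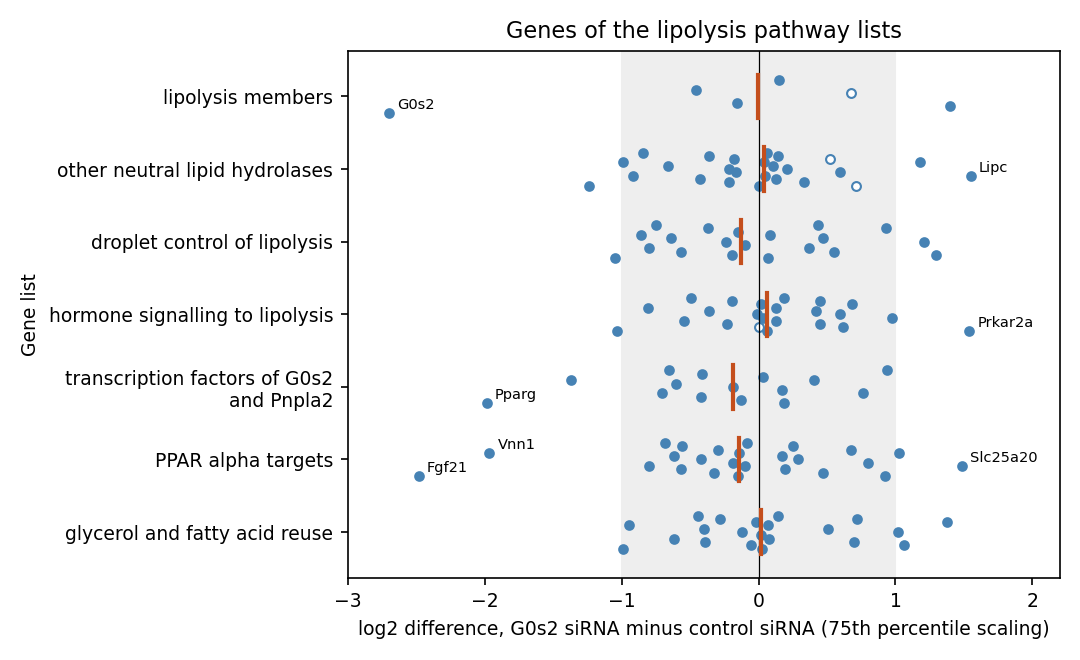
The log2 difference of each measured gene, G0s2 siRNA minus control siRNA, in the members and 6 pathway lists, with 1 point per gene, open where the value is a bound, and an orange bar at the list's median. The grey band spans differences under 2-fold. Medians run from -0.19 to 0.06, and the named points are those farthest from 0.

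Hormone signalling to lipolysis was measured for all 23 genes listed, with 1 at least 2-fold higher, 1 lower and a median of 0.06. Prkar2a, a regulatory subunit of protein kinase A, which activates hormone-sensitive lipase, differed by 1.54 ± 0.20. Adrb3, a beta-adrenergic receptor gene, differed by -1.03, which was -0.71 under normexp and -0.52 with probes averaged. Pde4b, a phosphodiesterase gene, differed by 0.97 with signals of only 17.8 and 60.9, and by -0.02 under normexp. Pik3r1, of the insulin pathway, differed by -0.81. Most of this list lay within 2-fold.

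Among transcription factors known to act on G0s2 or Pnpla2, 15 of 16 were measured, 0 were at least 2-fold higher, 2 were lower and the median was -0.19. Pparg, a nuclear receptor gene known to drive both G0s2 and Pnpla2 in fat cells, differed by -1.99 ± 0.07, with signals of 497 with control siRNA and 218 with G0s2 siRNA. Its small error is no sign of closer replication, as Pparg too rests on 1 array per group. Creb3l3, a liver factor of fasting, had signals of 8307 and 5592 and a difference of -1.37. These 2 genes were lower, and the other factors stayed within 2-fold. Ppara differed by 0.94, although its other probes gave 0.06 and 0.62. Ppargc1a, a coactivator gene, differed by 0.76, which was 0.38 with probes averaged. Nr1h3, the LXR alpha gene, differed by 0.19 with its other probe at -0.20, and Srebf1 by -0.42.

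All 25 genes listed as targets of PPAR alpha were measured, 2 at least 2-fold higher, 2 lower, with a median of -0.14. Fgf21, a liver hormone gene, had signals of 143 and 44.6 and a difference of -2.48 ± 0.24, which was -1.75 under normexp. Vnn1, the gene of a pantetheinase, had signals of 1591 and 707 and a difference of -1.97 ± 0.20. In the opposite direction, Slc25a20, the carnitine-acylcarnitine carrier of mitochondria, differed by 1.48 ± 0.20 and Cyp4a14 by 1.02. Cyp4a14 belongs to a family with near-identical copies and is uncertain, and its difference was 0.84 under normexp. Cpt1a, which controls entry of fatty acids into mitochondria, differed by 0.68 and its other probe by 1.08, while Pdk4 differed by -0.30 and Angptl4, an inhibitor of lipoprotein lipase, by -0.62. The targets did not share a direction: 10 differences were positive and 15 negative, against 6939 positive and 8041 negative over all genes. Unlike the list, the set of all genes includes 1040 genes dim on the control array and 259 dim on the G0s2 siRNA array. For those genes the filter set the only sign that the bound could take. With probes averaged the median of the list was 0.10.

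In the list of glycerol use and fatty acid re-esterification, 21 of 23 genes were measured, 3 were at least 2-fold higher, 0 were lower and the median was 0.02. Dgat2, an enzyme of the last step of triglyceride synthesis, had signals of 4731 and 21377 and a difference of 1.38 ± 0.20. Gpd1, which makes glycerol 3-phosphate, differed by 1.06 and Lpin1, a phosphatidate phosphatase gene, by 1.02. Lpin3, its relative, differed by -0.99. Apart from the 3 higher genes the list lay within 2-fold. Across these 6 lists the shares of genes past 2-fold were 8.70% to 16.0%, beside 10.3% for all genes. With spike-in centring the medians of the 6 lists were 1.24 to 1.49, beside 1.37 for all genes, so the signs given for list genes hold relative to the 75th percentile.

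The labelled cell type was checked against markers. All 14 hepatocyte markers listed were well above background on both arrays, and Alb, the albumin gene, had signals of 149796 and 320460. Their median difference was 0.33, with 13 positive and 1 negative, beside 6939 positive and 8041 negative over all genes. The summed levels of these markers (signal over the 75th percentile) were 1968 with control siRNA and 2386 with G0s2 siRNA. Past 2-fold were Hnf4a, a liver transcription factor gene, at 1.04, and Cps1, a urea cycle enzyme gene, at 2.96 with signals of 455 and 6160. The Cps1 difference was larger in size than that of G0s2. Of 8 adipocyte markers, 3 were measured. Fabp4 had signals of 1000 and 1822, a difference of 0.07, Cidea is given above, and Retn passed the filter only through the array of G0s2 siRNA. Adipoq, Lep, Cfd, Plin1 and Slc2a4 were not well above background on either array. For the other cell types the sums rest mostly on a few probes of high signal and can run against most of a list, so signs and medians are given beside them. Macrophage markers were measured for 9 of 10 genes, 6 positive and 3 negative, with a median of 0.35 and sums of 13.8 and 12.7. Cd14 was past 2-fold higher at 1.10, and Mpeg1, with signals of 3024 and 2317, was lower at -1.18. Lyz2, counted as positive at a lower bound of 1.33, passed the filter only through the G0s2 siRNA array. It too could not have come out lower. Endothelial markers were measured for 7 of 8, 5 positive and 2 negative, with a median of 0.77 and sums of 9.80 and 7.55. Kdr, with signals of 3668 and 4477, differed by -0.51 while its other probe gave 1.27. Cdh5 was past 2-fold at 1.01, with signals of only 28.1 and 98.8. Cholangiocyte markers were measured for 6 of 7, 1 positive and 5 negative, with a median of -0.91 and sums of 7.69 and 4.36. Krt19 at -1.13 and Cldn7 at -1.29 were past 2-fold lower. The positive one, Prom1, also passed the filter only through the G0s2 siRNA array, so it could not have come out lower. Stellate markers were measured for 4 of 9, 3 positive and 1 negative, with a median of 0.40 and sums of 1.21 and 2.33. Among them Dcn was past 2-fold higher at 1.12. Lymphocyte markers were measured for 3 of 7, all negative, with a median of -0.63 and sums of 2.85 and 1.84. Cd3e was past 2-fold lower at -1.01. The lymphocyte median is the bound of Cd79a, which passed the filter only through the control array, so Cd79a could not have come out higher. The part of these other cells in the differences of Mgll, Lipe and the listed genes was not tested.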

How the data were processed

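The 2 arrays on 1 slide were used, 1 per group, each assigned from its sample label. The deposited scanner tables hold spot intensity values from Agilent Feature Extraction 10.7.1.1, per the file headers, with probe coordinates on mm9. The intensity columns of the authors' series table, each with a median of 33.1, served only as an alternative. How they were normalized is not stated in the sources used. Position, pixel number and flags were other columns of the deposited tables.

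Control spots and flagged outlier spots were left out, spots of a probe were averaged as log2, and each array's 75th percentile was subtracted. For a gene dim on a single array, the dim value was replaced by the array's lowest signal well above background, or kept if larger, which gives a bound. Names came from a RefSeq gene table. No spot was saturated. The number of arrays limits the precision, and no test was possible with 1 array per group.

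The members, lists and rules were chosen with earlier results of these data known. Named genes were the members, list genes at least 2-fold either way, up to 4 per list with the largest difference, and a fixed set of droplet, hydrolase and PPAR genes. Calculations used Python 3.11.15, numpy 2.4.6, pandas 2.3.3, statsmodels 0.14.6, matplotlib 3.10.9, R 4.3.3 and limma 3.58.1 (normexp with an offset of 50, quantile, cyclic loess), and lowess with a span of 0.3. The steps were tested on simulated data, with large changes planted in bright genes and the scanner's error as the only noise. That test does not bear on spread between arrays, on changes near the fold rule or on genes dim on a single array.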

Additional observations from a re-analysis of the deposited data

How the results depend on the processing

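Differences were compared with their scanner error. G0s2 was lower, Mgll higher by over 2-fold, and Pnpla2 positive under all 8 alternatives, and the G0s2 difference minus the Pnpla2 difference ranged from -2.96 to -2.65. Spike-in centring moved G0s2 to -1.28, Pnpla2 to 1.58, Abhd5 to 1.27, Lipe to 2.10, Mgll to 2.82 and Pnpla3 to 0.97. With normexp G0s2 was at -2.36 and Lipe at 0.00, and with probes averaged Abhd5 was at 0.31 and Mgll at 1.10. Genes past the rule, 1583 (741 higher, 842 lower), numbered 12158 (12111 and 47) with spike-in centring, 893 (377 and 516) with normexp, 2978 (1523 and 1455) with dim probes kept, 4163 (1918 and 2245) at 1.5-fold and 412 (176 and 236) at 3-fold. Among other named genes, whose alternatives were chosen after seeing the data, spike-in centring turned the sign of 17 of 44, 4 of them past 2-fold before: Adrb3 to 0.39, Ces3a to 0.19, Cidea to 0.38 and Creb3l3 to 0.055. The other 13 were negative but within 2-fold and include Ces1f, Lpin3, Pnpla7, Pik3r1, Faf2, Hilpda and Angptl4. Abhd5 and Pnpla3 turned as well. The spike-in shift is common to all genes measured on both arrays by construction. The cause of the other changes was not tested. No paired analysis was possible because each group has 1 array, and for the same reason no replicate could be left out. Signal over background limits dim genes: normexp took Lipe to no fold, Pde4b from 0.97 to -0.02, Fgf21 from -2.48 to -1.75 and Efemp1 from -2.67 to -1.62.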
